A study of Danio rerio with 4 samples.

Results

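The potassium channel genes were taken from bulk RNA-seq of hearts dissected from zebrafish embryos at 48 hours postfertilization (hpf). They were defined as the rows whose gene symbol begins with kcn and whose normalized count averaged at least 5 over the 4 libraries. Of the 19661 genes in the table, 64 carried such a symbol, and 41 of these met the mean. The hearts came from *egr3* mutants homozygous for *bns577*, an 11-bp deletion made with CRISPR-Cas9, and from siblings with 2 wild-type copies (*bns577*+/+). There were 2 libraries per genotype, each a pool of 20 hearts, and embryos were live genotyped before dissection. No transgene, Cre or drug treatment is named for these samples. A pool mixes myocardium, endocardium and any adhering tissue, so fewer cells of a type and less RNA per cell cannot be told apart.

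Potassium channels let K+ leave the cell and so repolarize the membrane after each action potential and set its resting voltage. In the heart, inward rectifiers (kcnj) hold the resting potential, channels of the erg type (kcnh) and of the KCNQ type (kcnq) end the action potential, and Kv4 channels (kcnd) give the early transient outward current. Calcium-activated channels (kcnn and kcnma) couple the voltage to intracellular calcium, tandem-pore channels (kcnk) carry background leak, and several kcn genes encode auxiliary subunits that carry no current themselves. Many of these genes are also used outside cardiac muscle, in neurons, endothelium and ion-transporting epithelia.

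The deposited values are read counts per gene that the authors normalized and rounded to whole numbers, with library totals from 9161759 to 9481943. *egr3* itself had 528 and 537 normalized counts in wild types and 873 and 889 in mutants. The deletion removes only a short piece of the transcript, so this level does not check the genotype labels. In the study's sequencing sheet the file names of both replicate 2 libraries carry the opposite genotype to their sample IDs. By those names, wild type 1 and mutant 2 would share a genotype, as would wild type 2 and mutant 1. Each group compared below would then mix both genotypes. The labels are followed here, and values are also given from the replicate 1 libraries alone. Replicate differences were mirrored between the genotypes, as described below. The replicate 1 values may therefore not be independent of the replicate 2 libraries. The hearts expressed all 8 cardiomyocyte markers found in the table, which summed to 33255 and 40783 normalized counts in wild types and 34372 and 30172 in mutants. Skin markers stood apart in wild-type replicate 2, at 18744 against 702 to 3810 in the other libraries. Hatching gland markers summed to 1432 and 1758 in wild types and to 27 and 21 in mutants. All 4 genes were lower in both mutants, against 25.8% of all genes tested below. Of the 4, *he1.2* and both *ctslb* rows met the minimum mean only through the wild types. They had to be lower in mutants to be included. *he1.1*, with 987 and 1063 in wild types against 17 and 16 in mutants, met it in either genotype.

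The genotypes were then compared on log2(normalized count + 1) with limma, which fits a linear model per gene and moderates its variance, over the 17501 genes whose mean reached 5. All fold changes below are on this scale, which understates the change of genes with low counts. None of the 41 potassium channel genes had an adjusted p under 0.05, and the background share of such calls was 0.00571%. The lowest adjusted p among them was 0.122 in limma. At an unadjusted p under 0.05, 14 of the 41 genes (34.1%) differed between the genotypes, against 21.6% of all genes tested. Of these, 6 were higher in mutants (*kcnn4*, *kcnd2*, *kcnj2a*, *kcnn3*, *kcng1* and *kcnip1b*), where the background was 10.8%. The other 8 were lower (among them *kcnj1a.2*, *kcnk5a*, *kcnab1a*, *kcnh7*, *kcnab2b*, *kcnj19b* and *kcnh6a*), and the background for this direction was also 10.8%.

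The replicate number of the labels was also entered as a block. In that limma fit, 3 of the 41 genes (7.32%) had an unadjusted p under 0.05, against 4.9% of all genes. They were *kcnn4* and *kcnd2*, higher in mutants (background 2.54%), and *kcnj1a.2*, lower in mutants (background 2.36%). The lowest adjusted p was 0.841. In the fit without a block, each library was also left out in turn. The log2 fold change then stayed between 1.59 and 1.67 for *kcnn4* and between -3.96 and -2.96 for *kcnj1a.2*. Such a fit leaves 1 library in a genotype, which is assumed to vary like the other genotype. Both *kcnd2* and *kcnj1a.2* met the minimum mean through 1 genotype alone and so had to differ. By the values alone, both mutants lay above both wild types in 13 genes (background 24.7%) and below them in 9 (background 25.8%), and the genotypes overlapped in 19. The median log2 fold change of the 41 genes was 0.16, and that of all genes tested was 0. A mean of at least 5 can be met through 1 genotype alone. This was so for 8 of the 41 genes, 5 with a mean under 5 in wild types and 3 with one in mutants, and such genes had to differ to be included. Among the other 33 genes, 5 were higher and 6 lower in mutants at an unadjusted p under 0.05. The share of all genes under this restriction was not counted, so these counts have no background beside them.

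**Figure D1:**
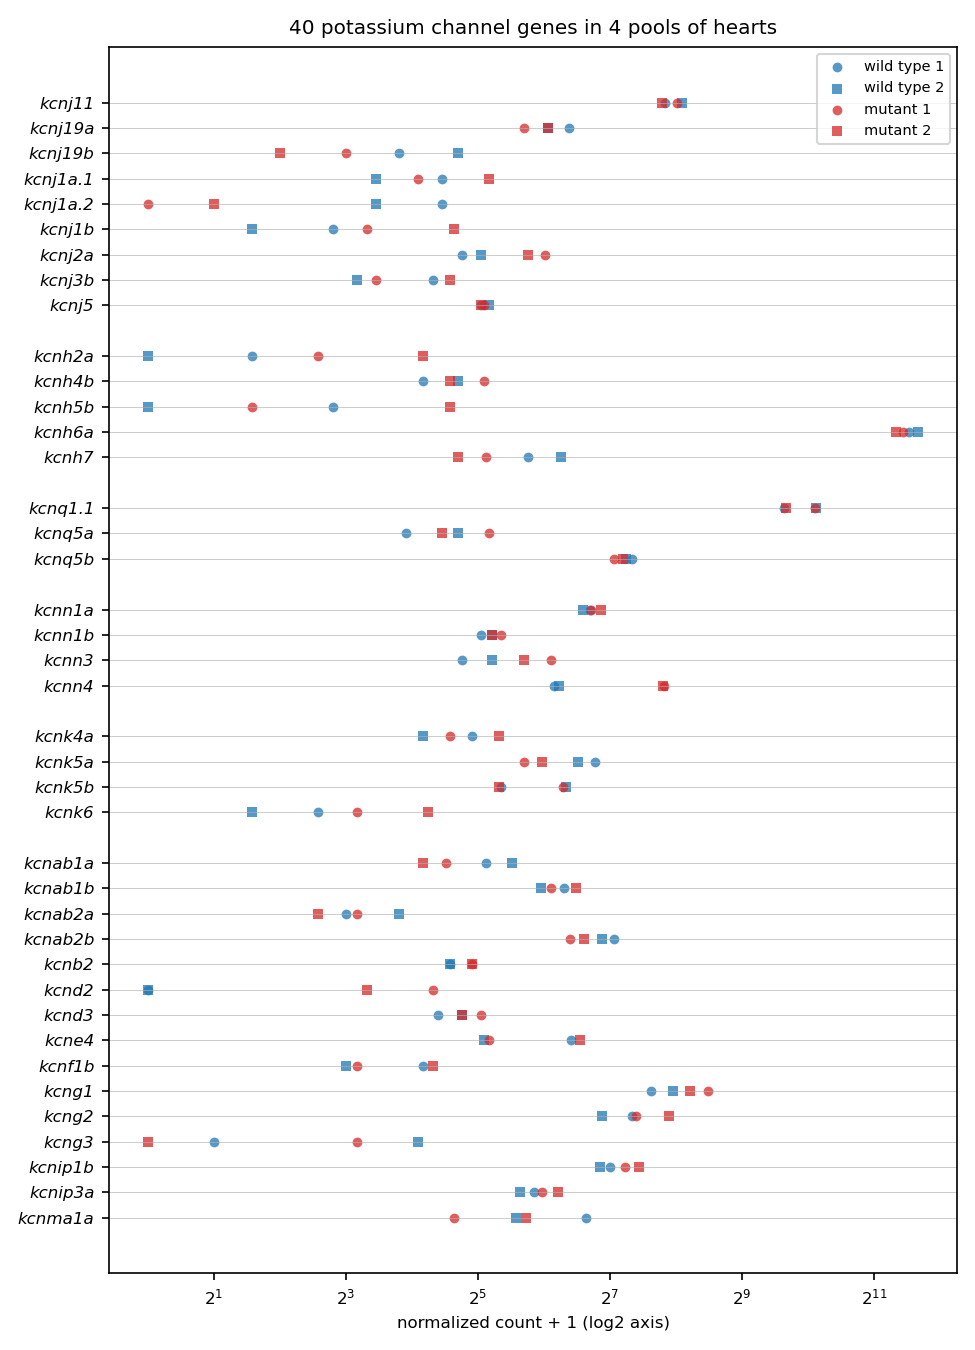
Normalized count plus 1 (log2 axis) of 40 of the 41 potassium channel genes in each of the 4 libraries, grouped by family in the order kcnj, kcnh, kcnq, kcnn, kcnk and others. Blue points are wild-type pools and red points mutant pools, with circles for replicate 1 and squares for replicate 2. In *kcnn4* the mutants sit at 223 and 226, apart from the wild types at 70 and 74, whereas in *kcnq1.1* each mutant sits beside a wild type.

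The spread within a genotype was mirrored between the genotypes. In 39 of the 41 genes, the replicate that was higher in wild types was the lower in mutants, and in the other 2, *kcnb2* and *kcnd2*, both wild types had equal values. The log2 differences between replicates 1 and 2 in the genotypes had a correlation across the 41 genes of -0.98, and of -0.99 across all genes tested. Genes share the 4 libraries and are not independent replicates. The mirroring was nearly exact in size. With 1 added to each count, *kcne4* differed 2.5-fold between wild types and 2.61-fold between mutants in the opposite sense, and *kcnk5b* 1.98-fold and 1.95-fold. Within a genotype, 13 genes differed at least 2-fold, and in 7 of these the genotypes overlapped. Each gene thus carries 1 independent measure of the spread between pools, although the fit without a block counts 2. The background shares given above carry the same property. Whether a difference between replicate numbers had been removed from the values before deposit is not given in the sources used here. If it had, the p-values without a block are too small. If the library file names hold, the spread within a labeled genotype would include the difference between genotypes.

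**Figure D2:**
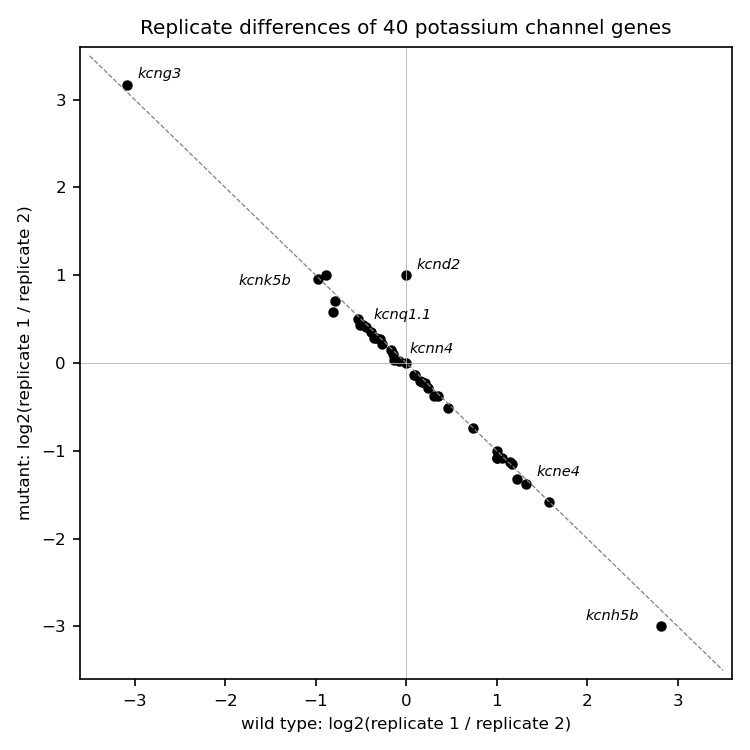
Log2 ratio of replicate 1 to replicate 2 (normalized count plus 1) in wild types (x axis) and in mutants (y axis) for 40 of the 41 genes, a point per gene, with a dashed line where the ratios are equal and opposite. Except for *kcnd2*, the points follow the dashed line, from *kcng3* at -3.09 and 3.17 to *kcnh5b* at 2.81 and -3.0, and *kcnn4* sits near the center at -0.08 and 0.02.

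The calcium-activated kcnn channels, a family of 4 genes here, held the gene with the lowest p of the 41. Of the 4, 2 were higher in mutants at an unadjusted p under 0.05, against 10.8% of all genes tested. *kcnn4* (ENSDARG00000086091, chromosome 16, 24743871 to 24819860, danRer11) encodes the intermediate-conductance channel, known in mammals from endothelium, red cells and immune cells. It had 70 and 74 normalized counts in wild types and 226 and 223 in mutants. Both mutant pools lay far above both wild types, with almost no spread within a genotype. Its log2 fold change stood at 1.63 (standard error, SE, 0.09, limma adjusted p = 0.122), and the SE was 0.24 under the replicate block. Over the other settings of the fit the change stayed between 1.58 and 1.67 and the adjusted p in limma between 0.0559 and 0.841. Without both replicate 2 libraries, the mutant exceeded the wild type by 1.68 on the log2 scale.

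Markers of the cell types in which this channel is known were compared beside it. Summed endocardial markers were 21061 and 23000 in wild types and 20902 and 23656 in mutants. Macrophage and neutrophil markers summed to 3275 and 4167 in wild types and to 3515 and 4636 in mutants. For red cell markers the sums were 15881 and 16065 against 15825 and 16591. The genotypes overlapped in each sum, but not in every marker. Duplicate reads had been removed, which can limit the values of abundant genes in these sums. Of the 7 endocardial genes, 2 were lower in both mutants, against 25.8% of all genes tested. They were *has2* (2629 and 2396 against 2079 and 2362) and *fli1a* (4406 and 4309 against 4054 and 4291). Among the 7, *kdrl*, a receptor for vascular endothelial growth factor, was higher in mutants at an unadjusted p under 0.05 (1658 and 1611 against 1799 and 1917). Of the 7 macrophage and neutrophil genes, *mfap4* was (306 and 277 against 345 and 394), and *mpeg1.1*, a macrophage marker, was also higher in both mutants (624 and 615 against 667 and 701). None of the 7 red cell genes had an unadjusted p under 0.05. Of all genes tested, 10.8% were higher in mutants at that p. The part of these cell types in the *kcnn4* result was not tested.

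*kcnn3*, a small-conductance channel gene that lies 1.02 Mb from *kcnn4* on the same chromosome, had 26 and 36 normalized counts in wild types and 68 and 51 in mutants. Both mutants were higher, by 0.92 on the log2 scale (SE 0.26, limma adjusted p = 0.186). The paralogs *kcnn1a* and *kcnn1b* differed little between the genotypes. *kcnn1a* had 103 and 96 normalized counts in wild types and 104 and 115 in mutants (log2 fold change 0.14, SE 0.11), and the nearest libraries of the genotypes were 1 count apart. *kcnn1b* had 32 and 36 in wild types and 40 and 36 in mutants (log2 fold change 0.16, SE 0.16), so the genotypes touched. Summed over the 4 kcnn genes, the counts were 231 and 242 in wild types and 438 and 425 in mutants, a difference that lay mostly in *kcnn4*. The large-conductance channel gene *kcnma1a*, which responds to both voltage and calcium, had 99 and 47 in wild types against 24 and 52 in mutants, and the genotypes overlapped.

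Among the 9 inward rectifier genes, 1 was higher and 2 were lower in mutants at an unadjusted p under 0.05. The background was 10.8% of all genes tested in each direction. *kcnj2a* encodes Kir2.1, which in mammals carries most of the resting current of ventricular muscle. It had 26 and 32 normalized counts in wild types and 64 and 53 in mutants, so both mutants were at least 1.5 times both wild types. Its log2 fold change was 0.99 (SE 0.19, limma adjusted p = 0.142). Under the replicate block the SE was 0.40 and the unadjusted p was 0.071. *kcnj11*, the pore subunit of the ATP-sensitive channel, had 227 and 273 in wild types and 257 and 221 in mutants. Here the genotypes overlapped fully (log2 fold change -0.06, SE 0.14).

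The acetylcholine-activated channels of the atrium and pacemaker are built from kcnj3 and kcnj5 subunits in mammals. *kcnj5* had 32 and 35 normalized counts in wild types and 33 and 32 in mutants, the flattest of the inward rectifiers (log2 fold change -0.04, SE 0.15). *kcnj3b* had 19 and 8 in wild types against 10 and 23 in mutants, and differed more within than between genotypes. Its paralog *kcnj3a*, under the minimum mean, was listed at 0 in both wild types and at 7 and 4 in mutants. The deposited annotation also gives *kcnj19a* and *kcnj19b* the name of a G protein-activated inward rectifier. *kcnj19b* was lower in both mutants, with 13 and 25 in wild types and 7 and 3 in mutants (log2 fold change -1.75, SE 0.55, limma adjusted p = 0.21). *kcnj19a* had 82 and 66 in wild types against 51 and 66 in mutants, and the genotypes met at 66.

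The kcnj1a genes are tandem copies related to mammalian Kir1.1, the secretory potassium channel of the kidney tubule, and in fish they are known from skin ionocytes. The 6 copies lie within 67.4 kb on the minus strand of chromosome 18 (danRer11). *kcnj1a.2* (ENSDARG00000090866, 48498366 to 48530221) had 21 and 10 normalized counts in wild types and 0 and 1 in mutants. Both mutants were near 0, and the fitted log2 difference was -3.46 (SE 0.63, limma adjusted p = 0.14), a size that depends on the pseudocount and was -4.12 with 0.5 and -1.85 with 5. The gene met the minimum mean only through the wild types, so it had to be lower in mutants to be included. *kcnj1a.3*, *kcnj1a.4* and *kcnj1a.5*, which missed the minimum mean, had from 5 to 9 in the wild types, against a listed 0 in either mutant. *kcnj1a.6* had 11 and 4 in wild types and 0 and 1 in mutants. Over these 5 copies the sums were 55 and 36 in wild types and 0 and 2 in mutants.

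The copy at the other end of the array did not share this pattern. *kcnj1a.1* (48542900 to 48558420) had 21 and 10 normalized counts in wild types and 16 and 35 in mutants, so the genotypes overlapped and neither mutant was near 0. *kcnj5*, with the levels given above, lies 18.1 kb from it. The 5 low copies are not independent measurements. The annotated span of *kcnj1a.2* contains those of *kcnj1a.3*, *kcnj1a.4* and *kcnj1a.5*, and *kcnj1a.5* and *kcnj1a.6* end at the same base, 48500545. Reads that map to several copies or to several genes were left out by the authors, so how the remaining reads divide among the copies is uncertain.

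**Figure D3:**
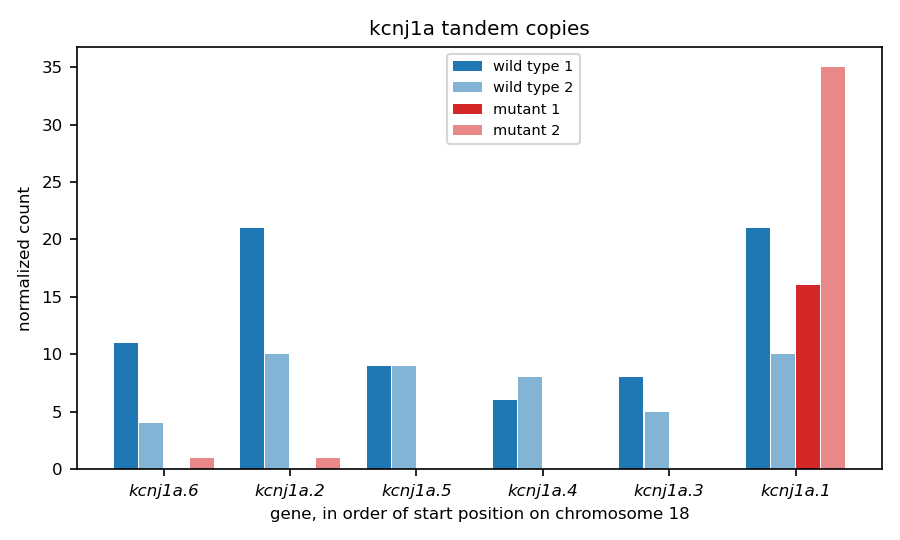
Normalized counts of the 6 kcnj1a copies on chromosome 18, in order of start position, with a bar per library (dark and light blue for wild types 1 and 2, dark and light red for mutants 1 and 2). The 5 copies on the left have between 4 and 21 in wild types and 0 or 1 in mutants, while *kcnj1a.1* on the right has 16 and 35 in mutants.

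Ionocyte markers were compared beside the low kcnj1a copies. Of 9 listed ionocyte genes in the table, *kcnj1a.1* among them, 7 could be tested, and 5 were lower in mutants at an unadjusted p under 0.05, against 10.8% of all genes tested. All 5 met the minimum mean only through the wild types and so had to be lower to be included. Over the 9 genes the sums were 262 and 791 for wild types and 93 and 134 for mutants, and *atp1b1b* alone made up 77, 633, 8 and 1 of them. *foxi3a*, a transcription factor that specifies these cells, had 28 and 39 normalized counts in wild types and 1 in each mutant, and *ca15a*, a carbonic anhydrase gene, had 26 and 10 in wild types and 0 in either mutant. The other 2 tested genes overlapped between genotypes and had higher means in mutants. The bicarbonate transporter gene *slc4a4b* had 62 and 42 in wild types and 59 and 88 in mutants (log2 fold change 0.49, SE 0.32). For *kcnj1a.1*, with the levels given above, the log2 fold change was 0.67 (SE 0.58). The part of ionocytes in the kcnj1a result was not tested. *kcnj1b*, on chromosome 10, had 6 and 2 in wild types and 9 and 24 in mutants (log2 fold change 1.79, SE 0.72). It met the minimum mean only through the mutants, so it had to be higher there to be included.

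Of the 5 erg-related kcnh genes, 2 were lower in mutants at an unadjusted p under 0.05, against 10.8% of all genes tested. *kcnh6a* (ENSDARG00000001803, chromosome 3, 31728871 to 31784082, danRer11) encodes the erg channel whose loss disturbs cardiac repolarization and rhythm in zebrafish, the role held by *KCNH2* in humans. It had the highest normalized counts of the 41 genes, with 2951 and 3264 in wild types and 2766 and 2589 in mutants. Both mutants were lower, but by a small step of -0.21 on the log2 scale (SE 0.07, limma adjusted p = 0.216). The highest mutant and the lowest wild type differed by less than the wild types did from each other. Of the 8 cardiomyocyte markers, 6 were lower in both mutants, 3 of them at an unadjusted p under 0.05, against 25.8% and 10.8% of all genes tested. The median log2 fold change of the 8 was -0.10. Duplicate reads had been removed, which can limit the values of abundant genes and so the size of their differences. The part of cardiomyocytes in the *kcnh6a* result was not tested.

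*kcnh7*, an erg-type gene known mainly from the nervous system in mammals, had 53 and 76 normalized counts in wild types and 34 and 25 in mutants. Both mutants were lower, with a log2 fold change of -1.10 (SE 0.28, limma adjusted p = 0.17). *kcnh2a* had 2 and 0 in wild types against 5 and 17 in mutants, and passed the minimum mean only through the mutants. The remaining members overlapped. *kcnh4b*, of the elk type, had 17 and 25 in wild types against 33 and 23 in mutants, and *kcnh5b*, of the eag type, had 6 and 0 against 2 and 23, also meeting the minimum mean only through the mutants.

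None of the 3 kcnq genes had an unadjusted p under 0.05, against 21.6% of all genes tested. *kcnq1.1*, whose human counterpart carries the slow delayed rectifier of cardiac muscle, had 796 and 1113 normalized counts in wild types and 1098 and 813 in mutants. The genotype means were almost equal (log2 fold change 0.01, SE 0.25), while the pools of a genotype differed by 1.4-fold in wild types and 1.35-fold in mutants. *kcnq5b* had 161 and 151 in wild types and 132 and 146 in mutants (log2 fold change -0.17, SE 0.10), and *kcnq5a* had 14 and 25 against 35 and 21. *kcne4*, an auxiliary subunit that damps KCNQ1 channels in mammals, had 84 and 33 in wild types and 35 and 93 in mutants. Its log2 fold change was 0.11 with an SE of 0.73, so a difference of 2-fold would lie within the spread of these libraries.

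Of the 4 tandem-pore genes, *kcnk5a* alone had an unadjusted p under 0.05, against 21.6% of all genes tested. The *kcnk5a* protein is a background channel that is sensitive to external pH in mammals. It had 108 and 91 normalized counts in wild types and 51 and 62 in mutants, and both mutants were lower (log2 fold change -0.81, SE 0.17, limma adjusted p = 0.147). Under the replicate block the SE was 0.32. The paralog *kcnk5b*, known from zebrafish fin size mutants, had 40 and 80 in wild types and 77 and 39 in mutants, with a log2 fold change of -0.05 (SE 0.53). *kcnk6* had 5 and 2 in wild types against 8 and 18 in mutants and met the minimum mean only through the mutants. *kcnk4a*, whose mammalian counterpart opens under membrane stretch, had 29 and 17 against 23 and 39.

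**Figure D4:**
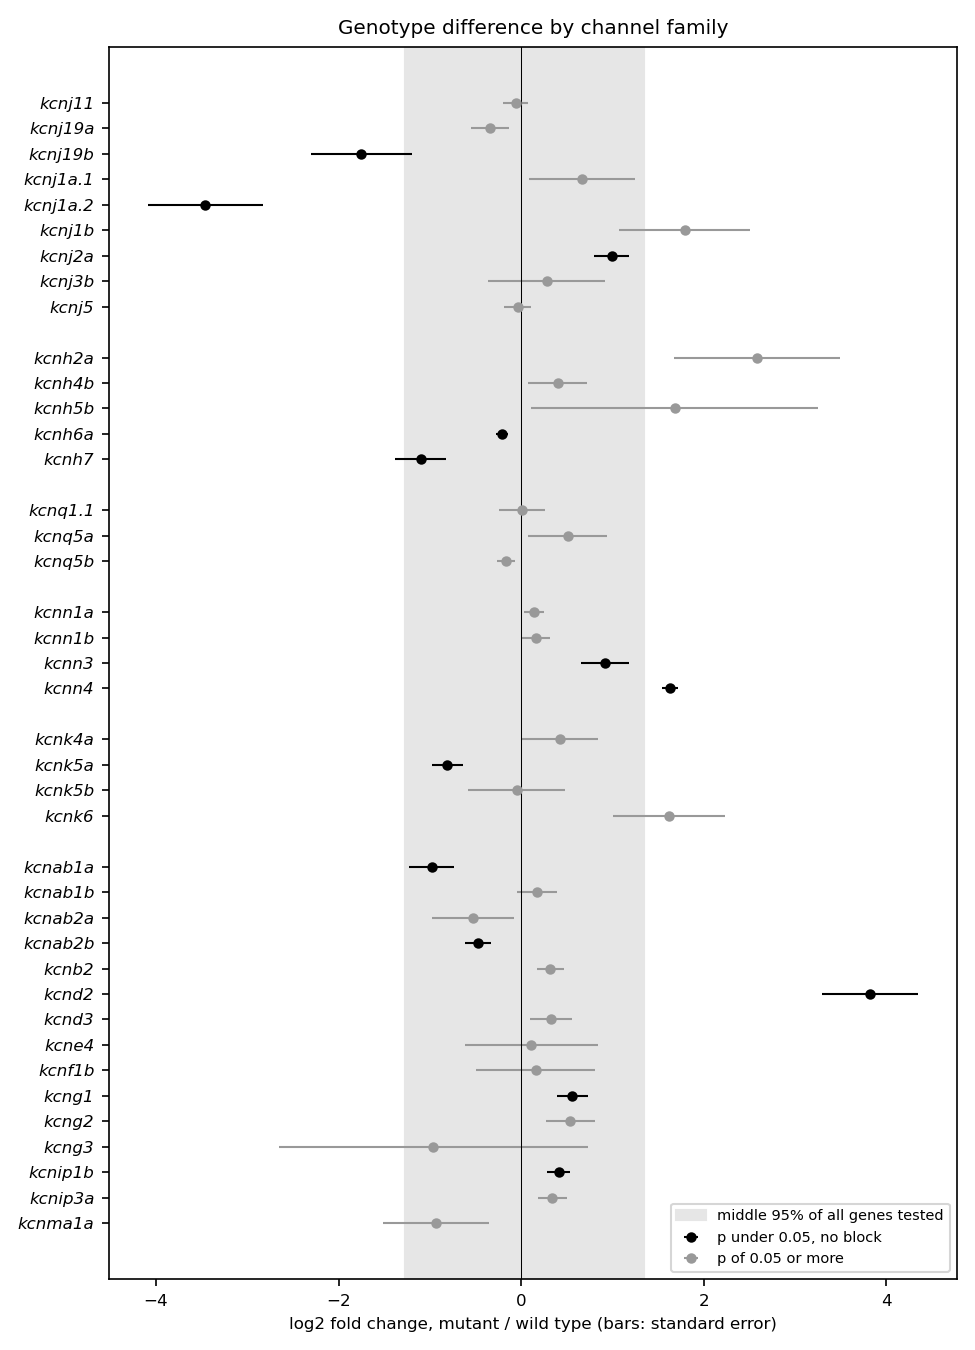
Log2 fold change of mutants over wild types from limma without a block for 40 of the 41 genes, grouped by family, with standard errors as bars. Black points have an unadjusted p under 0.05, grey points do not, and the shaded band holds the middle 95% of all genes tested, from -1.27 to 1.34. *kcnn4* (1.63), *kcnk6* (1.62), *kcnh5b* (1.68), *kcnj1b* (1.79), *kcnh2a* (2.58) and *kcnd2* lie to the right of the band. *kcnj19b* (-1.75) and *kcnj1a.2* (-3.46) lie to its left. Of these, *kcnk6*, *kcnh5b*, *kcnj1b*, *kcnh2a* and *kcnd2* met the minimum mean only through the mutants, and *kcnj1a.2* only through the wild types. Such genes had to differ to be included, and in *kcnh5b* the genotypes overlapped. The position of the *kcnd2* point along the x axis is set by the pseudocount, since the wild types are listed at 0.

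The remaining 16 genes, *kcnma1a* and *kcne4* among them, encode mostly Kv channel pores and their partners. At an unadjusted p under 0.05, 3 were higher and 3 lower in mutants, against 10.8% of all genes tested in each direction. *kcnd2*, a Kv4 pore gene on chromosome 4, was listed at 0 in both wild types and had 19 and 9 normalized counts in mutants, and so passed the minimum mean only through the mutants (adjusted p = 0.134 from limma). No fold change is given against a group listed at 0. *kcnd3*, the other Kv4 gene, had 20 and 26 in wild types against 32 and 26 in mutants, and the genotypes met at 26. Neuronal markers were higher in mutants beside *kcnd2*. Of 7 in the table, 6 were higher in both mutants, 2 of them at an unadjusted p under 0.05, against 24.7% and 10.8% of all genes tested. The sums were 374 and 495 in wild types and 685 and 580 in mutants. *elavl3*, which marks young neurons, had 13 and 11 in wild types against 40 and 48 in mutants, and *stmn2a* had 0 in either wild type against 13 and 10 in mutants. These were the 2 with an unadjusted p under 0.05, but *stmn2a* met the minimum mean only through the mutants and so had to be higher. The part of neurons in the *kcnd2* result was not tested.

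*kcnb2*, a Kv2 pore gene, had 23 in each wild type and 29 in each mutant, a log2 fold change of 0.32 (SE 0.15). The kcng and kcnf genes encode silent subunits, which form channels only together with Kv2 pores. *kcng1* had the highest counts of these, with 197 and 248 in wild types and 359 and 296 in mutants. Both mutants were higher (log2 fold change 0.56, SE 0.17, limma adjusted p = 0.207). *kcng2* had 161 and 117 in wild types and 167 and 238 in mutants (log2 fold change 0.54, SE 0.27). The mutants were again above the wild types, but by only 6 counts between the nearest libraries. The genotypes overlapped in *kcng3*, with 1 and 16 against 8 and 0, as they did in *kcnf1b*, with 17 and 7 against 8 and 19.

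The cytoplasmic beta subunits, which attach to Kv1 channels, were lower in mutants for a gene of each pair. *kcnab1a* had 34 and 45 normalized counts in wild types and 22 and 17 in mutants (log2 fold change -0.98, SE 0.25, limma adjusted p = 0.168). *kcnab2b* had 132 and 117 in wild types and 83 and 97 in mutants (log2 fold change -0.47, SE 0.14, limma adjusted p = 0.196). Their paralogs overlapped between genotypes, with 78 and 61 against 68 and 89 for *kcnab1b* and 7 and 13 against 8 and 5 for *kcnab2a*. The Kv4-interacting calcium sensors were higher in both mutants. *kcnip1b* had 127 and 114 in wild types and 149 and 172 in mutants (log2 fold change 0.41, SE 0.13, limma adjusted p = 0.203). *kcnip3a* had 57 and 49 against 62 and 73 (log2 fold change 0.34, SE 0.16). This gene, annotated as a processed transcript, lies 7.82 Mb from *egr3* on chromosome 8, the only member within 10 Mb of the mutated gene. The other members on that chromosome, *kcnd3* and *kcnn1b*, lie 22.5 and 37.4 Mb away.

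Copies whose symbols differ only in a final a or b were both among the members for 6 genes. The numbered kcnj1a copies and *kcnj1b* are not among these pairs. In 4 of the 6 pairs the log2 fold changes had the same sign. In none of these 6 pairs did both copies separate the genotypes, and the difference between the copies of a pair was not tested. Singly, 50.5% of all genes tested separated the genotypes. The share of pairs was not counted over all genes, so both pair counts have no background beside them. Outside these pairs, *kcnj1a.2* was lower and *kcnj1b* higher in both mutants. Each met the minimum mean through 1 genotype alone. Outside the rule for naming, these paralogs and all other members were described after their values had been seen.

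Without both replicate 2 libraries only a single library per genotype is left, which gives values and no test. In each of the 14 genes with an unadjusted p under 0.05 the genotypes did not overlap, which fixes the direction of this difference but not its size. Mutant 1 exceeded wild type 1 by 1.27 for *kcnj2a*, 1.35 for *kcnn3* and 0.86 for *kcng1* on the log2 scale. Among the lower genes the difference was -1.07 for *kcnk5a*, -0.63 for *kcnh7*, -0.61 for *kcnab1a* and -0.09 for *kcnh6a*.

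The minimum mean removed 23 kcn rows. The members nearest above it were *kcnh2a* at a mean of 6 and *kcng3* at 6.25, and the rows nearest below it were *kcnj1a.5* at 4.5 and *kcnj14* at 4.25. Of the 23 rows, 6 were listed at 0 in both mutants and 3 at 0 in both wild types. These counts have no background beside them, since the share over all genes under the minimum mean was not counted. Besides the kcnj1a copies, *kcna1a*, a Kv1 pore gene of neurons, had 7 in each wild type and 0 in either mutant. *kcnj13*, known from zebrafish stripe pattern mutants, had 1 in each wild type and 6 and 7 in mutants. *kcnj8*, the vascular ATP-sensitive pore gene, had 2 counts in wild-type replicate 1 and was listed at 0 in the other libraries.

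Of 27 genes listed for cardiac repolarization, 14 were in the table and 10 met the minimum mean. At an unadjusted p under 0.05 in limma, 2 of the 10 were higher (*kcnj2a* and *kcnd2*) and 1 was lower (*kcnh6a*). The background was 10.8% of all genes tested in each direction. *kcnd2* was listed at 0 in wild types, so it had to be higher in mutants to be included. The median log2 fold change was 0.20, or 0.11 without *kcnd2*. Both medians include *kcnh2a* (log2 fold change 2.58), which also met the minimum mean only through the mutants. Genes that work beside potassium channels were also listed, among them the sulfonylurea receptors, pacemaker channels, G protein subunits, calmodulins and sodium pumps. Of 29 such rows tested, 1 was higher and 6 were lower at an unadjusted p under 0.05 (24.1% in all, near the 21.6% of all genes tested), with a median log2 fold change of -0.09, and none had an adjusted p under 0.05. The higher gene was *atp1a3a*, a sodium pump subunit of neurons in mammals, with 17 and 16 in wild types and 35 and 40 in mutants. The lower genes included its paralog *atp1a3b*, with 30 and 33 in wild types against 16 and 15 in mutants, and *ank2b*, an ankyrin that anchors ion transporters, with 589 and 663 against 503 and 462. The others were *gnb1b*, *calm3b*, *atp1b1a* and *atp1b1b*. Of these, *atp1b1b* met the minimum mean only through the wild types, so it had to be lower in mutants to be included.

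The partners of *kcnj11* and the pacemaker channels were among these genes. *abcc9* and *abcc8*, whose proteins join the kcnj11 and kcnj8 pores in the ATP-sensitive channel, had 83 and 91 against 101 and 95, and 366 and 452 against 353 and 296. The nearest libraries of the genotypes were 4 and 13 counts apart, in opposite directions. Of the pacemaker channels, which pass sodium and potassium, *hcn4* had 537 and 713 in wild types and 928 and 725 in mutants (log2 fold change 0.41, SE 0.21). *hcn2b* had 2453 and 2598 against 2400 and 2346.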

How the data were processed

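Total RNA from 4 pools of hearts was amplified with a low-input kit and sequenced as single-end reads. The submitters' processing notes name Trimmomatic 0.39, STAR 2.7.10a, Picard 2.27.1, featureCounts 2.0.2, DESeq2 1.30.1 and danRer11. Multi-mapping, duplicate, mitochondrial and rRNA reads were removed, and removing duplicates can limit the values of abundant genes. Use of strand is not given in the sources used here, so overlapping genes are uncertain. Each deposited value is treated as a score, because the authors had scaled the counts and rounded the result. Read depth and counting intervals cannot be had from such values, and no count model was run. Whether the values were adjusted for replicate number is not given in the sources used here, and p-values without a block would be too small if they were.

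Genotypes were compared with limma 3.58.1 in R 4.3.3 (lmFit, eBayes with a variance trend) and two-sided p-values were adjusted by Benjamini-Hochberg over all genes tested, with a threshold of 0.05. The labels do not say that the pools came from separate clutches, so p-values measure the spread between these pools only. The labels give both genotypes the same replicate numbers without saying that a number marks a shared clutch or day, so the fit without a block was the main design and the block an alternative. Same-numbered pools deviated in opposite directions, a property that bears on the p-values of either fit. The fit was also run on simulated counts, with changes placed only in genes with higher counts. That run does not test the fit for genes with low counts, and its outcome is not given here. Levels are not compared between genes by length.

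The members and lists were chosen with earlier results of these data known. By rule, 23 genes were named. These were the genes with an unadjusted p under 0.05, up to 3 further genes with separated genotypes, the members on the cardiac repolarization list, the gene with the highest mean of each family, and genes listed at 0 in a genotype. Some genes are counted but not reported here by name.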

Additional observations from a re-analysis of the deposited data

How the results depend on the processing

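For each test, 12 alternatives were run. None of the 41 genes had an adjusted p under 0.05 in limma under any of them, against 14 at an unadjusted p under 0.05. That count of 14 stayed between 10 and 14 under other pseudocounts, filters and scalings and without the variance trend. The share of all genes tested was not counted under these settings, nor for the fits below that leave out a single library. The counts from those fits therefore have no background beside them, and each such fit leaves a genotype with a single library. A minimum mean of 20 left 29 genes, with 5 rather than 8 lower at that p. With the replicate number as a block, 3 genes (2 higher, 1 lower) had an unadjusted p under 0.05, against 4.9% of all genes tested. Leaving out single libraries gave 5 to 7 genes, with 2 to 5 higher and 2 to 3 lower. A crossed replicate block, chosen after seeing the data, gave 37 genes (24 higher, 13 lower) with and without adjustment, against 69.5% and 71.4% of all genes tested. With replicate deviations mirrored between the genotypes, this block takes up nearly all of the spread, so its counts say little about the genes. The block groups wild type 1 with mutant 2 and wild type 2 with mutant 1. That is also the grouping by genotype that the library file names give. Which naming holds was not tested. Genes whose genotypes did not overlap numbered 17 to 24. By the deposited values the genotypes did not overlap in 50.5% of all genes tested, and this share was not counted for the alternatives.

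Of the 23 named genes, 5 changed sign when a library was left out, all with overlapping genotypes. Their log2 fold changes then ranged from -0.58 to 0.81 for *kcne4*, from -0.30 to 0.85 for *kcnj3b*, from -0.20 to 0.07 for *kcnj11*, from -0.10 to 0.02 for *kcnj5* and from -0.24 to 0.25 for *kcnq1.1*. The cause was not tested. *kcnh6a* had an unadjusted p of 0.0502 in limma with no filter on the mean. Without the variance trend, 12 of the 14 genes kept an unadjusted p under 0.05, and *kcnb2* joined them. The genes that dropped out in that setting were *kcnh6a* and *kcng1*. There were 2 pools per genotype and the depth behind each rounded value is unknown.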
